A study of Rattus norvegicus with 89 samples.

Results

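The comparison is of kidney RNA from rats given valproic acid for 1 day with kidney RNA from rats given saline for 1 day, across all genes of the array. Its members are the arrays titled with valproic acid or saline and 1 day, 6 valproic acid rats (3 males and 3 females) and 7 saline rats (3 males and 4 females), so 13 of the 89 arrays of the series. All rats were Sprague-Dawley Crl:CD(SD) animals of about 7 to 8 weeks at the start, with no genetic alteration named, and treatment was daily. The RNA of 1 rat came from tissue of the apical parts of both of its kidneys, homogenized together, and each rat had 1 Affymetrix array. The other groups used here are 6 rats given valproic acid for 5 days, 6 rats each given doxorubicin, cadmium, tobramycin, cisplatin or gentamicin (spelled Gentamycin in the labels) for 1 day, 5 rats given saline for 5 days and 6 untreated (naive) rats. For some genes, means of the other 5 compounds at 5 days (5 rats for doxorubicin, 6 for each other) are also used. Doses, routes and the clock time of sampling are not given in the labels. The design text counts 5 nephrotoxicants and 2 controls without saying which compounds are which. For saline rat 1F104 the treatment text is absent and for saline rat 1M2 it names 5 days, and both were kept where their titles put them.

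Valproic acid is a branched short-chain fatty acid used against epilepsy. It inhibits class I histone deacetylases, the enzymes that take acetyl groups off histones, and it is activated to a coenzyme A ester and broken down in part by mitochondrial beta-oxidation, the same route that proximal tubule cells use for fuel. Kidney cells also run a circadian clock, in which the activators Bmal1, Clock and Npas2 drive the Per, Cry, Nr1d and Dbp genes, and the Nr1d proteins (Rev-erb) in turn repress Bmal1 and Npas2. Few tubule cells of an adult kidney divide at any time, so mitotic genes are usually weakly expressed there.

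Values are deposited MAS5 signals scaled to a common mean, and changes are differences of log2(signal + 16), which understates the change of weakly expressed genes. In all, 11420 named genes were tested. The ranges of array brightness before scaling overlapped, with trimmed means of 120.4 to 320 in valproic acid rats and 136.9 to 351.7 in saline rats. Rank correlations between pairs of the 13 arrays ran from 0.923 to 0.984. The ratio of the 3′ to the 5′ GAPDH control probe sets, a measure of RNA integrity, was 2.36 in valproic acid rat 7F155 and 1.16 to 1.43 in the other 12 rats. The tissue label fitted its markers. The proximal tubule genes Slc34a1 and Lrp2 had mean signals of 5568 and 5354 in valproic acid rats, against 5404 and 5184 in saline rats, and the loop of Henle gene Umod had 6743 in valproic acid rats, against 6487 in saline rats. Of 31 markers of kidney and other cell types, 22 were among the genes tested and 0 were called.

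Few genes passed the limit between valproic acid and saline rats of day 1, and most of those belong to the circadian clock. By limma with Benjamini-Hochberg adjustment, 9 genes (0.0788% of the genes tested) were called at an adjusted p under 0.05, of which 5 rose (0.0438%) and 4 fell (0.035%). The clock genes Dbp, Per3, Nr1d1 and Nr1d2 rose and their activators Bmal1 and Npas2 fell. The mitotic gene Cdca3 also rose, and Rnf125, an E3 ubiquitin ligase that targets the RNA sensor RIG-I, and Ptger3, the EP3 receptor for prostaglandin E2, fell. At an unadjusted p under 0.05 there were 1049 genes (9.19%), 604 higher (5.29%) and 445 lower (3.9%). The 6 valproic acid rats and the 7 saline rats did not overlap in 31 genes (0.271%), 18 higher (0.158%) and 13 lower (0.114%), and 8 of the 9 called genes were among them. A fit that took its spread from all 89 arrays called 26 genes (0.228%), 11 higher (0.0963%) and 15 lower (0.131%), and held all 9. In RNA of whole tissue, fewer cells of a type and less RNA per cell cannot be told apart, which applies to every difference below.

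**Figure D1:**
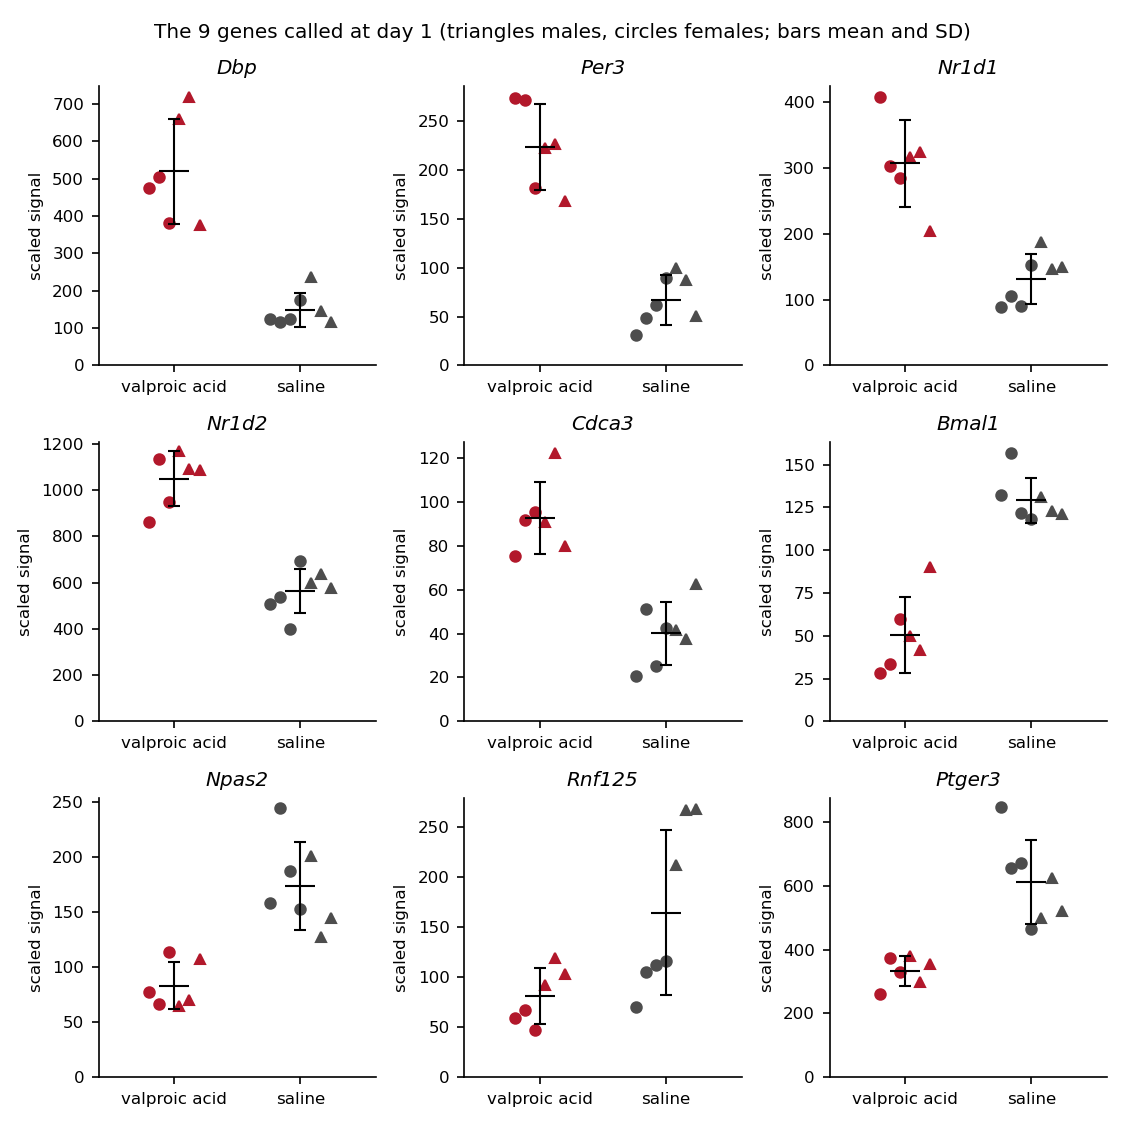
Scaled signal (vertical axis) of the 9 called genes in each rat given valproic acid (red, left) or saline (grey, right) for 1 day, with males as triangles, females as circles, and bars for the mean and SD. The groups are apart in every panel except Rnf125, where valproic acid rats reach 119.4 and saline rats go down to 70.7.

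Dbp, a transcription factor that carries the clock's rhythm to output genes, had the smallest p. Its lowest, median and highest signals were 377, 490.3 and 717 in valproic acid rats, against 115.4, 124.4 and 237.6 in saline rats. Every valproic acid rat was above every saline rat. The difference was 1.68 ± 0.17 on the log2 scale (SE, 6 against 7 rats), a 3.21-fold rise with an adjusted p of 0.000488. Dbp lies on chromosome 1 at 105312256 to 105317205 of the GRCr8 assembly.

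Per3, a period protein of the clock's negative arm, ran from 168 over a median of 225 to 274 in valproic acid rats, against 31.5, 62.1 and 100.3 in saline rats. It rose by 1.56 ± 0.19 (adjusted p = 0.00295). Nr1d1 (Rev-erb alpha) ran from 205 over 309.6 to 409 in valproic acid rats, against 88.1, 145.9 and 186.8 in saline rats, and rose by 1.13 ± 0.17 (adjusted p = 0.0129). Its paralogue Nr1d2 (Rev-erb beta) was the brightest of these probe sets, at 860.2, 1090 and 1169 in valproic acid rats, against 399, 577 and 695 in saline rats. It rose by 0.87 ± 0.10 (adjusted p = 0.00239). In all 3 genes the lowest valproic acid rat was above the highest saline rat.

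The activators went the other way. Bmal1, the partner of Clock and Npas2, ran from 28.4 over 45.8 to 90.1 in valproic acid rats, against 118.5, 123.1 and 156.8 in saline rats, and fell by 1.19 ± 0.16 (adjusted p = 0.00558). Npas2 ran from 64.6 over 74.1 to 113.6 in valproic acid rats, against 127.3, 158.5 and 244.9 in saline rats, and fell by 0.92 ± 0.15 (adjusted p = 0.0211). In both genes the highest valproic acid rat was below the lowest saline rat.

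Of the 20 measured genes of the clock list, 4 rose, 2 fell and the other 14 did not pass. At an unadjusted p under 0.05, 9 were higher and 5 lower, against 5.29% and 3.9% of all genes. Among those that did not pass, Per1 was 0.95 ± 0.27, Usp2 0.76 ± 0.19, Bhlhe41 0.59 ± 0.16, Per2 0.52 ± 0.13 and Tef 0.40 ± 0.10 higher in valproic acid rats. Nfil3, a repressor that competes with Dbp and Tef for the same sites, was 0.92 ± 0.18 lower without overlap (adjusted p = 0.0881), at 15.4, 36.2 and 52.4 in valproic acid rats, against 58.6, 74.8 and 115.9 in saline rats. Cry1 was 0.75 ± 0.18 lower and Clock 0.33 ± 0.10 lower. Hlf (0.10) and Cry2 (0.23) differed little, with unadjusted p of 0.444 and 0.0579. The fit on 89 arrays called Nfil3 and Cry1 as well.

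Promoters of 3 called clock genes are shown because they hold elements of the kind that the loop is known to act through. Each is the 250 bases before the RefSeq start in GRCr8, 5′ to 3′ on the gene's strand. Capitals mark CACGTG, the E-box bound by Bmal1 with Clock or Npas2, in Nr1d1 (the second of its 2 listed starts), and AGGTCA, the half-site bound by the Nr1d proteins, in Bmal1 and Nr1d2.
Nr1d1, chr10:84229455-84229704, minus strand: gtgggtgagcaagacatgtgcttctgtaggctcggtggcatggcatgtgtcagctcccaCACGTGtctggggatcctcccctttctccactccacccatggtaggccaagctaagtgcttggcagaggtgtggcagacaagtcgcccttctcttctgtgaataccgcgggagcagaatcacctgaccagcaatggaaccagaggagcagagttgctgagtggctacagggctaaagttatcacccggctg
Bmal1, chr1:176766078-176766327, plus strand: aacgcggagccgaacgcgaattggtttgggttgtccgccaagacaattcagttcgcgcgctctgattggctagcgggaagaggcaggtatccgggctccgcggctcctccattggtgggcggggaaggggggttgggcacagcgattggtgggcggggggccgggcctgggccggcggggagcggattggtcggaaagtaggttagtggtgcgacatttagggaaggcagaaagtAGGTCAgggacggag
Nr1d2, chr15:9954784-9955033, plus strand: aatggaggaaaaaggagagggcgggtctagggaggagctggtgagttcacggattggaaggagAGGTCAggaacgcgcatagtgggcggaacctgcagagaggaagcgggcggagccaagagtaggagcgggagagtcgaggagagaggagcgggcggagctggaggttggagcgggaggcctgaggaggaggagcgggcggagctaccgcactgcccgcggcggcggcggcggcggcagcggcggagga
Both strands were searched, and CACGTG reads the same on either. It occurs in 5.59% of the 33469 promoters of the table and AGGTCA in 14.1%, in windows of the same length. With 1 promoter a gene, 8.32% of the 9507 tested genes that have one hold CACGTG and 10.7% hold AGGTCA. Of the 17 clock genes with a promoter there, 3 hold CACGTG and 3 hold AGGTCA in the first one listed (17.6% each). The first listed promoter of Nr1d1 holds no CACGTG, so the E-box shown is not among those counted. The promoter of Dbp, searched in the same way, holds neither element. For Per3 and Npas2 the search gave no match either, and a gene without a listed promoter would read the same. The matches describe letters, not binding.

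The clock genes also differed between the other groups of day 1, in an order close to that of the first digit of the rat codes. That digit is 1 for saline, 2 for gentamicin, 3 for cisplatin, 4 for tobramycin, 5 for cadmium, 6 for doxorubicin, 7 for valproic acid and 8 for naive rats, and the labels do not say what it stands for. Mean Dbp signals at day 1 were 518.9 ± 141.6 for valproic acid, 512 ± 161 for doxorubicin, 436.6 ± 137.8 for cadmium, 354.1 ± 92.2 for tobramycin, 293.9 ± 94 for cisplatin, 210.2 ± 67 for gentamicin, 148.2 ± 44.6 for saline rats (SD, n = 7 for saline and 6 for each other group), and the mean of the 6 naive rats was 239.6, with a highest value of 437.6. From saline to valproic acid the means went up with the digit, naive rats stood outside that order, and neighbours in it differed by less than the larger of their SDs. Bmal1 ran the opposite way, with cadmium and doxorubicin exchanged, at 50.5 ± 22.4 for valproic acid, 61.3 ± 35.9 for doxorubicin, 59.2 ± 27 for cadmium, 76.1 ± 14.9 for tobramycin, 91.3 ± 23 for cisplatin, 127.2 ± 37 for gentamicin, 129.2 ± 13.2 for saline and 113.7 ± 34.1 for naive rats. Against the same saline rats, Dbp was also called for doxorubicin (1.61, adjusted p = 0.0114), tobramycin (1.17, 0.0431) and cadmium (1.44, 0.0446), and was not for cisplatin (0.88, 0.623) or gentamicin (0.42, 0.873). Those contrasts called 5 genes in all for doxorubicin (0.0438%), 7 for tobramycin (0.0613%) and 3 for cadmium (0.0263%). Among all groups of the series, saline rats of day 1 had the lowest means of Dbp, Per3, Nr1d1 and Nr1d2 and the highest of Bmal1 and Npas2. Group and code number cannot be told apart, and a part of sampling order or time in the clock differences was not tested.

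**Figure D2:**
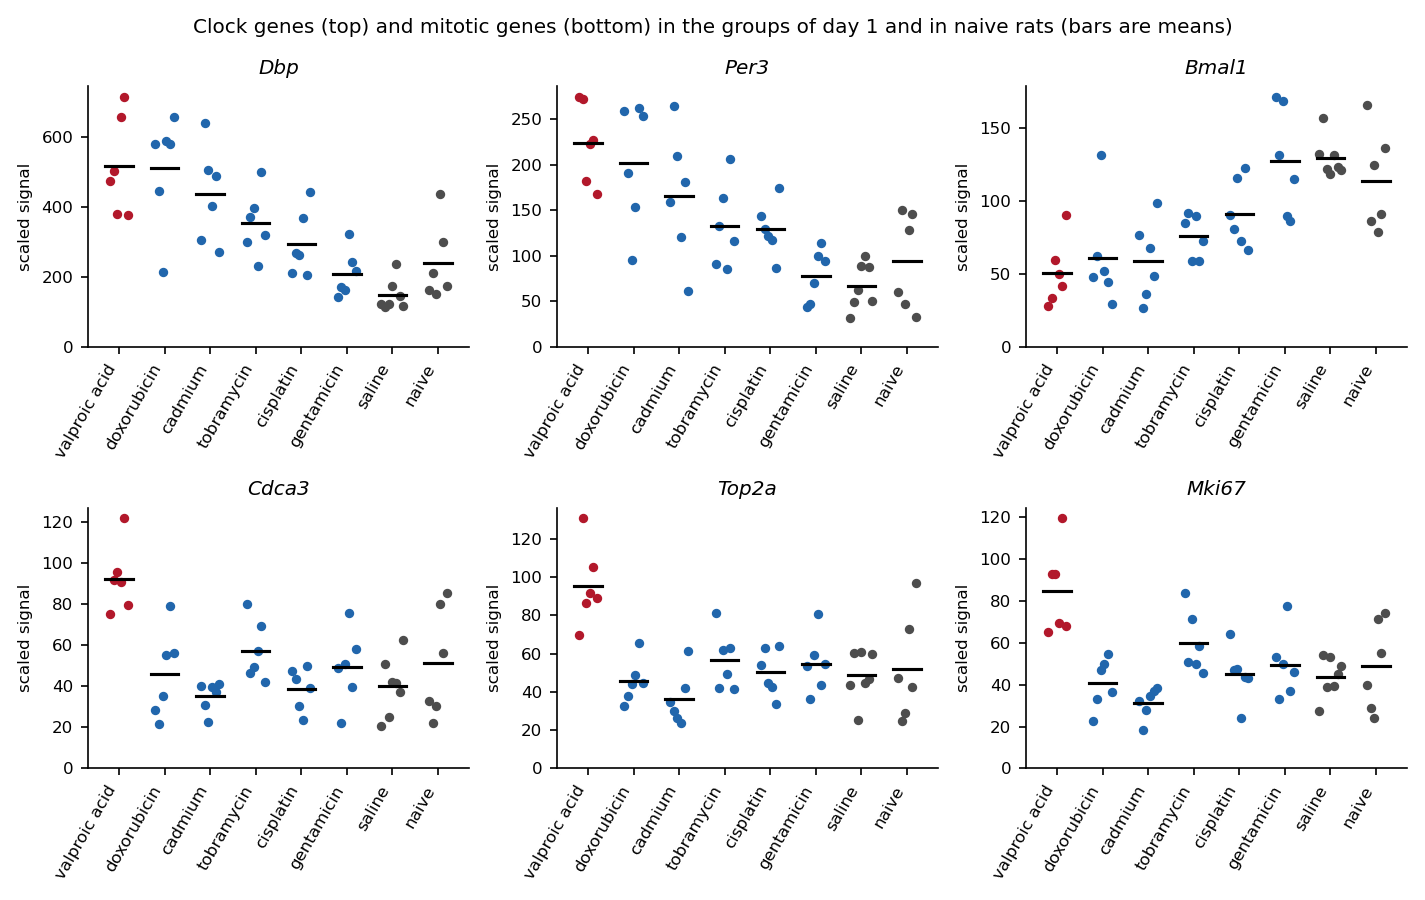
Scaled signal (vertical axis) of 3 clock genes (top) and 3 mitotic genes (bottom) in single rats of each group of day 1 and in naive rats, with bars for the means. Dbp means are 519 in valproic acid rats and 148.2 in saline rats, with the other compounds between. The Cdca3 mean is 92.5 in valproic acid rats and at most 57.5 in any other group shown. Single naive rats reach 85.4 for Cdca3, 96.7 for Top2a and 74.3 for Mki67, inside the range of the valproic acid rats. Single rats of other compounds lie in that range too, up to 80.1, 81.3 and 83.8 in tobramycin rat 4F128.

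Set against the mean of the 5 other compounds at day 1, a contrast that holds no saline array, 0 of the 20 clock genes were called and 9 had an unadjusted p under 0.05, against 1299 of all genes (11.4%). Dbp was 0.58 higher (adjusted p = 0.244) and Per3 0.71 higher (0.191) in valproic acid rats. Against naive rats, a contrast with the same valproic acid arrays, 37 genes (0.324%) were called, 14 higher (0.123%) and 23 lower (0.201%). Dbp rose by 1.12 there (adjusted p = 0.0331), Nr1d2 rose by 0.67 (0.0367) and Npas2 fell by 0.87 (0.0197), and all 9 genes called against saline had the same sign. Saline against naive rats gave 0 calls by limma, with 929 genes (8.13%) at an unadjusted p under 0.05.

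At day 5, valproic acid against saline gave 0 calls by limma, with 757 genes (6.63%) at an unadjusted p under 0.05. The difference between both days' effects gave 0 calls and 599 genes (5.25%) at an unadjusted p under 0.05. Each of the 9 genes called at day 1 had the same sign at day 5, and 6 of them an unadjusted p under 0.05. At day 5 the difference of Dbp was 1.23, of Per3 0.97, of Nr1d2 0.66, of Nr1d1 0.27, of Bmal1 -1.07 and of Npas2 -1.51. Mean Dbp signals were 623.4 in valproic acid rats of day 5 and 280.4 in saline rats of day 5 (n = 6 and 5), with SDs of 242.7 and 143.9. For the other compounds at day 5 they were 747.7 (doxorubicin), 699.6 (cadmium), 436.3 (tobramycin), 434.8 (cisplatin) and 328.5 (gentamicin). Mean Bmal1 signals of day 5 were 37.4 in valproic acid and 88.0 in saline rats. Those of the other compounds, in the same order, were 34.5, 34.1, 59.9, 67.6 and 95.3. Of the 14 clock genes with an unadjusted p under 0.05 at day 1, 13 had the same sign at day 5. No share over all genes was taken for the counts of equal sign, and clock genes are not independent of each other.

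Of the 3 called genes outside the clock list, Cdca3 stood at 75.1, 91.2 and 122.1 in valproic acid rats, against 20.5, 41.7 and 62.5 in saline rats. Cdca3 is needed for entry into mitosis, and it rose by 0.96 ± 0.16 (adjusted p = 0.0211). Ptger3 stood at 259, 343 and 381 in valproic acid rats, against 465, 622 and 845 in saline rats, and fell by 0.82 ± 0.13 (adjusted p = 0.0211). A second probe set of Ptger3 was 0.88 lower. Rnf125 stood at 47.6, 79.5 and 119.4 in valproic acid rats, against 70.7, 116.4 and 268.3 in saline rats, and fell by 0.88 ± 0.13 (adjusted p = 0.0129). Valproic acid and saline rats do not overlap for Cdca3 and Ptger3, and they do for Rnf125, since its saline males lay at 212 to 268 and its saline females at 70.7 to 116.4. At day 5 Rnf125 differed by -1.09 (unadjusted p = 7.4e-06), Ptger3 by -0.04 and Cdca3 by 0.06. Against the same saline rats of day 1, Ptger3 was also called for doxorubicin (-0.69, adjusted p = 0.0472) and Rnf125 for tobramycin (-0.70, 0.0482). For cadmium Ptger3 differed by -0.60 (0.183) and Rnf125 by -0.83 (0.155). Naive rats had a mean Ptger3 signal of 404.6 (302.1 to 559.4) and a mean Rnf125 signal of 114.6 (68.5 to 159.6). Among all groups of the series, saline rats of day 1 had the highest means of both genes, at 610.8 and 164.7. The means in valproic acid rats of day 1 were 333.1 for Ptger3, the lowest of all groups, and 81.5 for Rnf125.

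The calls of Dbp, Per3 and Bmal1 were made in each of 25 other settings. Without scaling the other 6 were not called (adjusted p of 0.98 for Nr1d2, 0.98 for Nr1d1, 0.224 for Npas2, 0.306 for Rnf125, 0.857 for Ptger3 and 0.98 for Cdca3). With saline and naive rats pooled, Nr1d1 (0.0686) and Ptger3 (0.151) were not called, and with the GAPDH ratio as a covariate Npas2 (0.0726), Ptger3 (0.053) and Cdca3 (0.057) were not. Without saline rats 1F104 and 1M2, Rnf125 (adjusted p = 0.0862) and Cdca3 (0.0883) were not called, and without a sex term Rnf125 was not (0.832). The call of Npas2 was lost without rat 7M55, 7F155, 7F156, 7M56, 1M1, 1F102 or 1F103 (adjusted p of 0.0504 to 0.0847), that of Ptger3 without 7M56, 7F157, 1M2, 1F102 or 1F103 (0.0504 to 0.08), and that of Cdca3 without 7M55, 7F156, 7M56, 7F157, 1M1, 1M2 or 1F103 (0.0504 to 0.0847).

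Genes of mitosis were higher together in valproic acid rats of day 1. Of the 33 measured genes of the cell cycle list, 30 were higher, against 54.4% of all genes tested, with a median log2 difference of 0.31, against 0.01 over all genes. None of the 33 passed in the fit on 13 arrays. At an unadjusted p under 0.05, 18 were higher and 0 lower, against 5.29% and 3.9% of all genes. In all 6 valproic acid rats 18 were higher than the saline mean of the same sex. No share over all genes was taken for that last count, and genes of a list are not independent of each other. Cdk1, the kinase that starts mitosis, stood at 52.8, 64.2 and 102.7 in valproic acid rats, against 20.4, 32.99 and 45.5 in saline rats. It was 0.80 ± 0.16 higher (adjusted p = 0.0868) without overlap.

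Top2a, the topoisomerase that untangles chromosomes, stood at 69.8, 90.2 and 130.9 in valproic acid rats, against 25.5, 46.9 and 61.0 in saline rats, and was 0.78 ± 0.16 higher (adjusted p = 0.0868). Mki67, which coats mitotic chromosomes and marks dividing cells, stood at 65.1, 81.1 and 119.6 in valproic acid rats, against 27.3, 45.2 and 54.4 in saline rats, and was 0.74 ± 0.15 higher (adjusted p = 0.0868). Neither pair of groups overlapped. The fit on 89 arrays called Cdk1 and Top2a of this list. In saline rats the mean signal of 9 of the 33 genes lay under 33.1, the 40th percentile of all values.

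Against the mean of the 5 other compounds 8 of the 33 cell cycle genes rose and 25 did not pass. That contrast called 21 genes (0.184%), 16 higher (0.14%) and 5 lower (0.0438%), and 8 of the 16 were of the cell cycle list. They were Top2a (0.80 ± 0.13, adjusted p = 0.00142), Cdk1 (0.66 ± 0.11, 0.00142), Mki67 (0.73 ± 0.13, 0.00556), Ect2 (0.66 ± 0.12, 0.00556), Prc1 (0.55 ± 0.11, 0.0108), Ccnb2 (0.55 ± 0.11, 0.0108), Nusap1 (0.49 ± 0.10, 0.0108) and Ccnb1 (0.50 ± 0.11, 0.0364). Ect2 and Prc1 act in cytokinesis, Nusap1 on the spindle, and Ccnb1 and Ccnb2 are the B cyclins that activate Cdk1. Outside the list Cdca3 (0.86 ± 0.14, 0.00142), the cell cycle phosphatase Cdkn3 (0.64 ± 0.11, 0.00556) and Arhgap11a (0.48 ± 0.11, 0.0405), rose as well. Ect2, Prc1, Ccnb1, Ccnb2 and Nusap1 were chosen for naming after their values were seen. In the fit on 89 arrays this contrast called 12 genes, 7 of them of the list, and did not call Mki67 (adjusted p = 0.0609) or Arhgap11a (0.205). Both contrasts use the same 6 valproic acid arrays. Against naive rats 28 of the 33 were higher with a median of 0.40, against 6396 of all 11420 genes. Of the 33, Ccnb2 alone was called there (0.70, adjusted p = 0.0352). Cdca3 was 0.78 higher there (0.0675). The naive values of Cdca3 were 56.04 to 85.4 in males and 22.2 to 32.7 in females.

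Members of the list differed among themselves, among genes of DNA synthesis and of mitosis alike. Pcna, the sliding clamp of DNA polymerase, differed by -0.05 ± 0.06, the nucleotide synthesis genes Tyms and Tk1 by -0.04 ± 0.13 and 0.07 ± 0.11, and the helicase subunits Mcm2 and Mcm7 by 0.14 ± 0.13 and 0.10 ± 0.13. The helicase subunits Mcm6 (0.53 ± 0.14) and Mcm4 (0.31 ± 0.10) were higher at an unadjusted p under 0.05, as was cyclin A2, Ccna2 (0.63 ± 0.17). The mitotic genes Birc5 (0.05 ± 0.13) and Kif11 (-0.25 ± 0.23) did not pass either. These genes were picked after their values were seen.

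**Figure D3:**
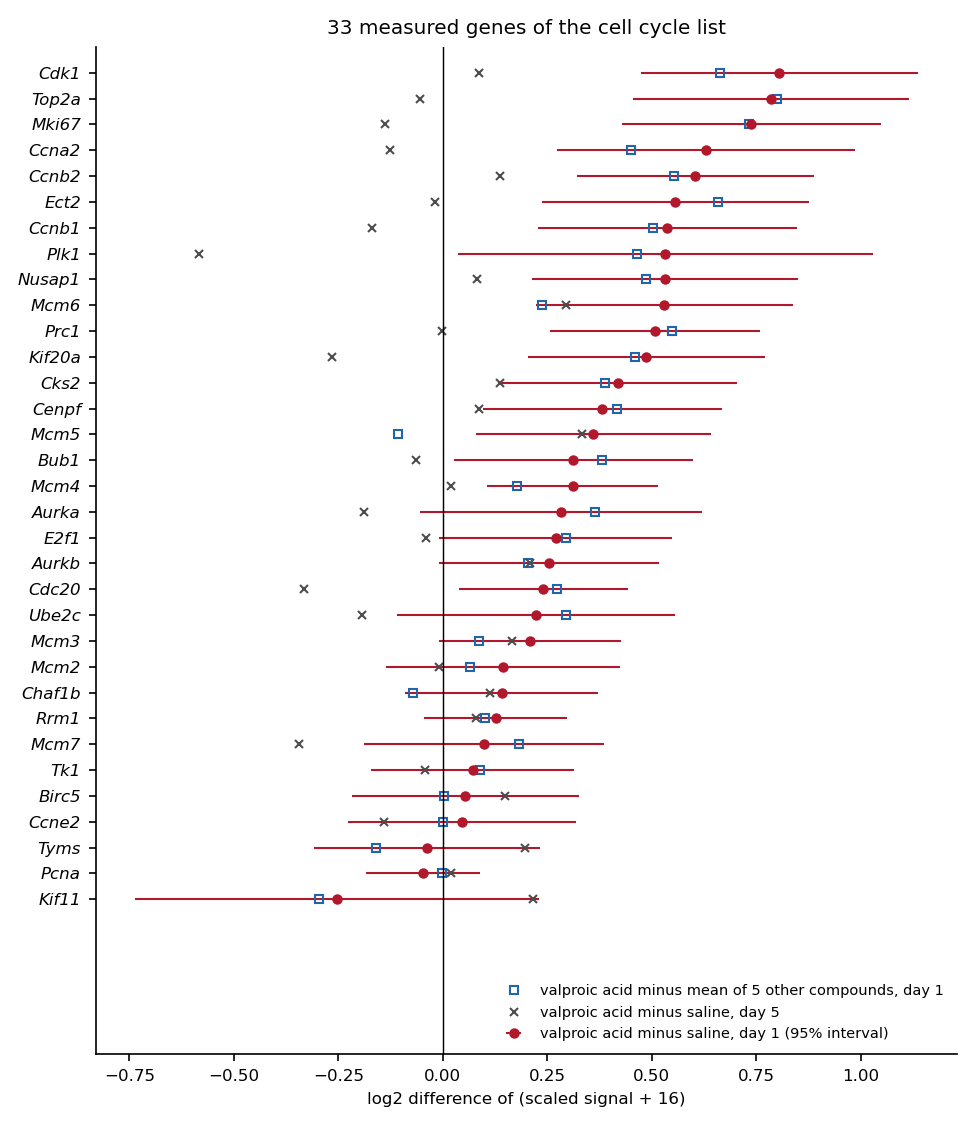
Log2 differences (horizontal axis) of the 33 measured cell cycle genes: valproic acid minus saline at day 1 with 95% intervals (red), valproic acid minus the mean of 5 other compounds at day 1 (blue squares) and valproic acid minus saline at day 5 (crosses). At day 1 the red points lie above 0 for 30 genes, and the crosses of day 5 lie on both sides of 0.

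At day 5 the list had a median difference of -0.003, with 16 of 33 genes higher. Mean Mki67 signals were 41.6 ± 16.9 in valproic acid rats of day 5 and 46.6 ± 11.5 in saline rats of day 5 (SD, n = 6 and 5), and Top2a means were 41.2 ± 9.71 in valproic acid rats and 44.8 ± 11 in saline rats of that day. For the other compounds at day 5, Mki67 means were 88.2 (cisplatin), 78.6 (tobramycin), 63.7 (gentamicin), 28.2 (cadmium) and 23.9 (doxorubicin). Top2a means, in the same order, were 80.0, 65.7, 68.7, 24.9 and 30.4. In valproic acid rats of day 1 the means were 84.7 for Mki67 and 95.4 for Top2a. The effect was smaller at day 5 than at day 1 in 13 of the 33 genes at an unadjusted p under 0.05, against 361 of all genes (3.16%), and none was called. Within each sex at day 1, 29 of the 33 were higher in valproic acid males than in saline males and 28 in valproic acid females than in saline females. The difference between the sexes in the effect gave 0 calls over all genes by limma, with 690 (6.04%) at an unadjusted p under 0.05.

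Promoters of 5 of the mitotic genes called against the other compounds are shown, of which Cdk1, Top2a, Ccnb2 and Prc1 were chosen because they hold a TTTGAA near the start and Cdca3 because it was also called against saline, with 2 elements in capitals that are known to keep such genes silent outside G2 phase and mitosis or to drive them there. TTTGAA is the cell cycle homology element, and CCAAT the box bound by NF-Y. On the opposite strand they read TTCAAA and ATTGG.
Cdk1, chr20:19265043-19265292, plus strand: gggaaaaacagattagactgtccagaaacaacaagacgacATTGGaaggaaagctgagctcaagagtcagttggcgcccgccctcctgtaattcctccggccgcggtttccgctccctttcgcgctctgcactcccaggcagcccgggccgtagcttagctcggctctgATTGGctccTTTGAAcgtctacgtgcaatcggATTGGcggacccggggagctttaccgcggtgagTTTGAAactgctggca
Top2a, chr10:84473094-84473343, minus strand: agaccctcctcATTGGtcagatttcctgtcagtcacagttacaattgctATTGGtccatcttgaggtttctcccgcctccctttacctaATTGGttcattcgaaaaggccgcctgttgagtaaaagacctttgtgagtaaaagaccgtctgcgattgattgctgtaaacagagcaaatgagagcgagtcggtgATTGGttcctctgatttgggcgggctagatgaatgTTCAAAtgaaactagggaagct
Ccnb2, chr8:79981659-79981908, minus strand: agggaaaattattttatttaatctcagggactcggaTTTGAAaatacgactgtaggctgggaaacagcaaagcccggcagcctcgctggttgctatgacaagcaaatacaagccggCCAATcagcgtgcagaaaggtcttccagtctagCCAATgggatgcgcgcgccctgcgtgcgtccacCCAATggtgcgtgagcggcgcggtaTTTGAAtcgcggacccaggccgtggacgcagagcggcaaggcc
Prc1, chr1:143659231-143659480, plus strand: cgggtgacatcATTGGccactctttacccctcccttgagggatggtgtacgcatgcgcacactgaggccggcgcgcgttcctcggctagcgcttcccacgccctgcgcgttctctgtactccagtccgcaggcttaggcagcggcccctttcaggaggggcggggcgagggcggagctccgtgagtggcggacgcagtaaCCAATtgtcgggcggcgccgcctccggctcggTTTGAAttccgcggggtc
Cdca3, chr4:159320953-159321202, plus strand: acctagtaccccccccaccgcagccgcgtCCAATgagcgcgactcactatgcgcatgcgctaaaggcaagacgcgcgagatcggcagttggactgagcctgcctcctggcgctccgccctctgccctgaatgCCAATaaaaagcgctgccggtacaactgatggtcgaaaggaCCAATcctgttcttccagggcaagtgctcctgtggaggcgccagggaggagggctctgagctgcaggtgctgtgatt
In the first 4, a TTTGAA lies close to the start, at -16 in Cdk1, -22 in Top2a, -43 in Ccnb2 and -18 in Prc1, with CCAAT boxes further upstream. The promoter of Cdca3 holds CCAAT boxes at -221, -118 and -77 and no TTTGAA. Of the 27 cell cycle genes with a promoter in the table, 10 hold TTTGAA (37%), 21 hold CCAAT (77.8%) and 9 hold both (33.3%). Over all 33469 promoters the shares are 16.2%, 34% and 5.87%, and over the 9507 tested genes with a promoter 9.92%, 35.6% and 3.76%. Of the 17 clock promoters 0 hold TTTGAA and 10 hold CCAAT (58.8%), among them those of Bmal1 and Nr1d2, where CCAAT is not in capitals.

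A few genes of the secretory pathway were lower in valproic acid rats, without passing in the fit on 13 arrays. Manf, a small secreted protein made when the endoplasmic reticulum is stressed, stood at 402, 468 and 542 in valproic acid rats, against 599, 675 and 1137 in saline rats. It was 0.63 ± 0.12 lower (adjusted p = 0.0868) without overlap. Creld2, a chaperone of the same compartment, stood at 265, 296 and 380 in valproic acid rats, against 329, 511 and 617 in saline rats, and was 0.61 ± 0.14 lower (adjusted p = 0.178). The fit on 89 arrays called both (adjusted p = 0.0095 and 0.0043), and against naive rats Manf fell by 0.85 (adjusted p = 0.00111). At day 5 Manf differed by -0.52 and Creld2 by -0.40. Hspa5, the main chaperone of the endoplasmic reticulum, was 0.28 lower and the transcription factor Xbp1 0.24 lower, with adjusted p of 0.491 and 0.344.

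The list of ER stress genes as a whole leaned lower too, by a small amount. Of its 36 measured genes 15 were higher (41.7%, against 54.4% of all genes) and the median was -0.04. At an unadjusted p under 0.05, 5 were lower and 0 higher, against 3.9% and 5.29% of all genes. The promoter of Creld2 holds the ER stress element, CCAAT and CCACG parted by 9 bases, which ATF6 and NF-Y bind, in capitals here and read on the opposite strand at -145.
Creld2, chr7:121789134-121789383, plus strand: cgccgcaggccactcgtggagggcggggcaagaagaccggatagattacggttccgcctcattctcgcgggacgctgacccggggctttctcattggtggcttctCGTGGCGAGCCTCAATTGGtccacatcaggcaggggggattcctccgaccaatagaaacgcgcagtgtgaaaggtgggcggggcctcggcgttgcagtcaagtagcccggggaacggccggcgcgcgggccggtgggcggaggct
It is in 22 of the 33469 promoters (0.0657%).

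Heat shock genes leaned the same way. Of 17 measured genes 2 were higher (11.8%, against 54.4% of all genes) and the median was -0.095. At an unadjusted p under 0.05, 5 were lower, against 3.9% of all genes, and none was called. The co-chaperones Stip1 (-0.32 ± 0.10), Chordc1 (-0.33 ± 0.12) and Dnaja1 (-0.40 ± 0.14) had the smallest p. Against naive rats Stip1 (-0.41, adjusted p = 0.0207), Chordc1 (-0.47, 0.011) and the co-chaperone Fkbp4 (-0.49, 0.0326), which is not on the list, fell. The inducible Hsp70 gene Hspa1a differed by -0.08 ± 0.14. By sex, Stip1 differed by -0.10 in males and -0.51 in females, Chordc1 by -0.08 and -0.55, and Dnaja1 by 0.00 and -0.76, and none of these differences between the sexes was called.

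The histone deacetylases themselves differed little. Of the 10 measured (Hdac1 to Hdac8, Hdac10 and Hdac11), 7 were higher (70%, against 54.4% of all genes). The median was 0.06 and none passed. Hdac8, a class I enzyme, was 0.31 ± 0.09 higher (adjusted p = 0.35), at 69.9, 88.0 and 92.3 in valproic acid rats, against 48.4, 69.1 and 75.0 in saline rats. The groups overlapped. The other class I members Hdac1 (-0.06 ± 0.08), Hdac2 (-0.02 ± 0.08) and Hdac3 (-0.01 ± 0.07) were close to 0, and the class II members Hdac4, Hdac5, Hdac6, Hdac7 and Hdac10 lay between 0.02 and 0.16. These are RNA levels, and enzyme activity and histone acetylation were not measured.

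Of 14 measured genes known to rise in cultured cells given inhibitors of these enzymes, 11 were higher (78.6%, against 54.4% of all genes). The median was 0.15, and none passed. Crip1, a small LIM domain protein, was 0.47 ± 0.12 higher (adjusted p = 0.259), at 174, 232 and 275 in valproic acid rats, against 135.4, 147.9 and 225.4 in saline rats. Txnip, the inhibitor of thioredoxin, was 0.18 ± 0.07 higher. The cell cycle inhibitor Cdkn1a, the usual readout of such compounds in culture, differed by -0.07 ± 0.12, and Clu by 0.19 ± 0.19.

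Genes of valproate's own breakdown gave no call. Of 31 measured enzymes of fatty acid beta-oxidation, 9 were higher (29%, against 54.4% of all genes) and the median was -0.06. At an unadjusted p under 0.05, 1 was higher and 3 lower, against 5.29% and 3.9% of all genes. The 3 were Echs1 (-0.20 ± 0.08), Decr2 (-0.31 ± 0.14) and Acadm (-0.11 ± 0.05), which act on enoyl-CoA, on unsaturated acyl-CoA in peroxisomes and on medium-chain acyl-CoA. Acox2, the peroxisomal oxidase of branched chains, was 1.31 ± 0.34 higher (adjusted p = 0.267), at 56.8, 259 and 650.2 in valproic acid rats, against 48.9, 89.1 and 122.4 in saline rats. The groups overlapped, and the difference was 0.45 in males and 2.06 in females. Cpt1a, the gate for fatty acids into mitochondria, differed by 0.17 ± 0.11, and Pdk4, which restrains glucose oxidation, by -0.14 ± 0.18.

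Acyl-CoA synthetases and conjugation enzymes, which could activate or conjugate valproate, had 8 of 25 genes higher (32%, against 54.4% of all genes). Their median was -0.07. The medium-chain synthetase Acsm5 was 1.45 ± 0.42 lower (adjusted p = 0.341), at 18.6, 22.7 and 292 in valproic acid rats, against 87.4, 130.1 and 275 in saline rats. Rat 7F156 held the 292, and the other 5 valproic acid rats lay below every saline rat. Acsm5 was called without 7F156 (-1.93, adjusted p = 0.00165), without scaling (-1.59, 0.000606) and with saline and naive rats pooled (-1.48, 0.041). Acsm1 was 0.67 ± 0.25 lower. Of 31 PPAR alpha targets 13 were higher (41.9%, against 54.4% of all genes) and the median was -0.09. Plin2, which coats lipid droplets, was 0.39 ± 0.11 lower (adjusted p = 0.307), and 0.31 lower in its second probe set. Relative to all genes the median of the acyl-CoA list was -0.0844, and -0.166 without saline rat 1M3 to -0.0248 without 7F155, and that of the PPAR alpha list was -0.103, and -0.0277 without saline rat 1M1.

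**Figure D4:**
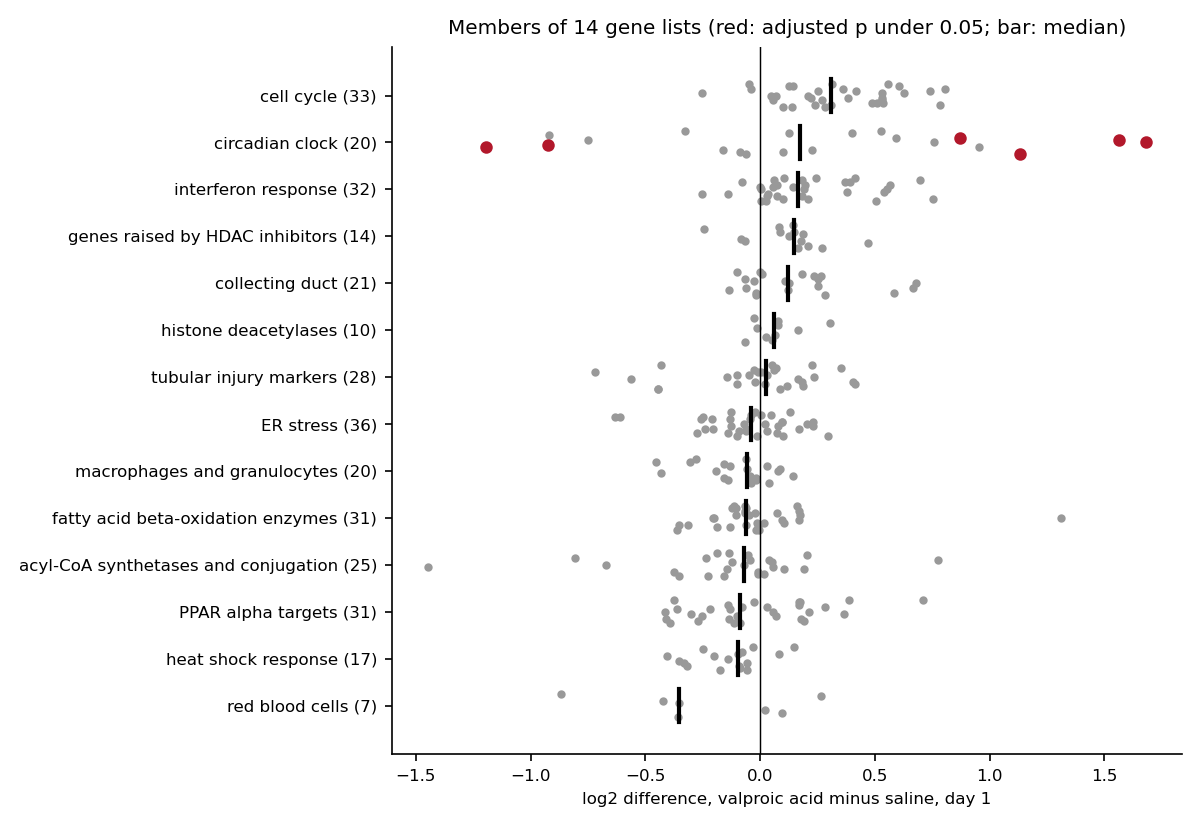
Log2 differences at day 1 (horizontal axis, valproic acid minus saline) of the members of 14 gene lists (rows, with the number measured), as points, red where the adjusted p is under 0.05, with a bar at the median. The called members shown are the 6 clock genes, and the cell cycle list has the highest median, 0.31.

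Among the genes with the next smallest p, which did not pass, were Stra6l, a receptor for retinol-binding protein (0.72 ± 0.13 higher, adjusted p = 0.0663), Phactr1, a regulator of actin and protein phosphatase 1 (0.76 ± 0.15 higher, 0.0868), and Psca, a surface protein of epithelia (0.73 ± 0.14 higher, 0.0868). On the lower side were Gramd4 (0.38 ± 0.08, 0.0911), the membrane metalloproteinase Mmp14 (0.59 ± 0.12, 0.0915), the chromatin remodeller Chd9 (0.33 ± 0.07, 0.0966), the nuclear receptor coactivator Pnrc1 (0.27 ± 0.06, 0.127), the pyruvate kinase Pklr (0.59 ± 0.13, 0.143) and Cdk2ap2 (0.37 ± 0.08, 0.151). A second probe set of Pklr was 0.63 lower, one of Mmp14 0.12 higher and one of Chd9 0.26 higher. The fit on 89 arrays called Gramd4, Chd9, Cdk2ap2, Klhdc7a and Acly lower and C1qtnf7 and Fry higher. Acly, the enzyme that makes acetyl-CoA from citrate for lipid synthesis and histone acetylation, differed by -0.29 ± 0.08.

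Collecting duct genes were higher at an unadjusted p under 0.05 in 5 of 21 measured genes, and 0 were lower, against 5.29% and 3.9% of all genes. The 5 were the urea transporter Slc14a2 (0.68 ± 0.16), the sodium pump regulator Fxyd4 (0.58 ± 0.15) and the water channels Aqp4 (0.67 ± 0.21), Aqp2 (0.28 ± 0.10) and Aqp3 (0.25 ± 0.08). None passed. Against naive rats Aqp3 rose by 0.45 (adjusted p = 0.0326). Over the list, 13 genes were higher (61.9%, near the 54.4% of all genes) and the median was 0.12. The summed signal ran from 14330 to 21360 in valproic acid rats and from 12620 to 19970 in saline rats. Relative to all genes the median was 0.106, and 0.0313 without saline rat 1F103 and 0.0597 without 7F155. Slc14a2, which is most abundant in the inner medulla, stood at 226.9, 485.2 and 593.8 in valproic acid rats, against 128.1, 364.4 and 456.2 in saline rats. The part of how much medulla each sample held in these differences, or in any of the genes above, was not tested.

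Markers of blood cells leaned lower, with none called against saline. Of 20 measured genes of macrophages and granulocytes 5 were higher (25%, against 54.4% of all genes) and the median was -0.06. The summed signal was 5063 to 7511 in valproic acid rats and 5720 to 8046 in saline rats. Mrc1 (-0.45) and Cybb (-0.43) had unadjusted p under 0.05. Against the 5 other compounds Cd68, a lysosomal protein of macrophages, fell by 0.60 (adjusted p = 0.0108) and Cst7, a cystatin of immune cells, fell by 0.65 (0.0108), while against saline they differed by -0.30 ± 0.18 and -0.59 ± 0.17. The fit on 89 arrays called neither against the other compounds (adjusted p = 0.115 and 0.0609). Cst7 was chosen for naming after its values were seen. Of 7 red cell genes 3 were higher (42.9%, against 54.4% of all genes) and the median was -0.36. Alas2 differed by -0.42 ± 0.14 and Hbb by -0.36 ± 0.12. The summed signal of the 7 was 4833 to 6828 in valproic acid rats and 5966 to 9002 in saline rats. Against naive rats Alas2 fell by 0.91 (adjusted p = 0.0197). The part of blood content in the other differences was not tested.

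The direction of interferon genes depended on the group set against valproic acid. Of 32 measured genes 29 were higher in valproic acid than in saline rats (90.6%, against 54.4% of all genes), with a median of 0.16 and 0 called. Isg15 was 0.70 ± 0.24 higher, at 65.4, 180 and 252 in valproic acid rats, against 51.7, 94.9 and 165 in saline rats, and the antiviral GTPase Mx2 was 0.75 ± 0.25 higher. Against naive rats 12 of the 32 were higher with a median of -0.08, and against the 5 other compounds none was higher and the median was -0.26. Of all 11420 genes, 6396 and 6116 were higher in those contrasts. The median of saline rats of day 1 against naive rats was -0.23. At day 5, 28 of the 32 were higher than in saline rats of that day, against 5769 of all 11420 genes, with a median of 0.44. Relative to all genes the median against saline at day 1 was 0.149, and 0.0762 without 7M55, 0.0936 without 7M57 and 0.0518 with saline and naive rats pooled.

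Markers of tubular injury showed no common shift. Of 28 measured genes 16 were higher (57.1%, against 54.4% of all genes), with a median of 0.02 and 0 called. Havcr1 (Kim-1), the injury marker of the proximal tubule, stood at 13.5, 17.2 and 26.9 in valproic acid rats, against 10.99, 19.6 and 225.5 in saline rats, where rat 1F104 held the 225.5. Lcn2 differed by -0.03 ± 0.26, the stress gene Hmox1 by -0.96 ± 0.85 and the metallothionein Mt2A by 0.05 ± 0.11. The keratin Krt18 was 0.35 ± 0.09 higher (adjusted p = 0.267) and Timp1 0.41 higher. Mt3, the metallothionein best known from brain, was 0.87 ± 0.19 higher against saline (adjusted p = 0.143), and rose by 1.00 against naive rats (0.0256) and against the 5 other compounds (0.0428). Its signals were 35.8, 55.3 and 99.98 in valproic acid rats, against 6.23, 24.9 and 62.3 in saline rats, and the groups overlapped.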

How the data were processed

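Deposited values are MAS5 signals, a linear intensity for each probe set, per the submitters' processing notes and the values; how MAS5 was set is not stated. Each array was scaled here to a common 2% trimmed mean of 180.9 and written as log2(signal + 16). Control probe sets (57), those with several gene symbols (436) and those with none listed (9780) were left out, and each of 14217 named genes was represented by its probe set with the highest mean. The probe annotation is GEO's and can be old. Genes with at least 5 of 89 arrays above 33.1, the 40th percentile, were tested (11420).

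Groups come from the sample titles. The 13 arrays were fitted by limma 3.58.1 in R 4.3.3 (lmFit and a trended, robust eBayes), with sex as a term, and p-values were adjusted by the Benjamini-Hochberg method. Sex labels of these 13 arrays were checked with 2 Y-linked genes, and none of them contradicted its label. The labels of the other arrays were not checked in this way. The fit was tested on simulated data. The number of arrays limits the precision, and p-values measure the spread between rats of 1 study. Dates of scanning were not used here. Valproic acid was also compared with naive rats and with the mean of the 5 other compounds, and its effect by day and by sex.

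Alternatives were other pseudocounts, scalings, filters, covariates, weights, controls and probe sets, the fit on 89 arrays, and leaving out single rats. Members and lists were chosen with earlier results of these data known. Named genes are called genes with 1 sign in all valproic acid rats, filled by p to 12 a direction, called members of each list or else its 3 with the smallest p, calls of the 89-array fit, and preset genes such as the Hdac family. List members given beyond these (among them further clock, DNA synthesis, heat shock and water channel genes) and genes described as such were chosen after their values were seen. Sequences are RefSeq's (GRCr8), whose promoters matched 93 of the 107 genes named. The plots used matplotlib 3.10.9 (Python 3.11.15).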

Additional observations from a re-analysis of the deposited data

Results flagged for a closer look

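Of 242 sets of values checked (107 genes and 14 list means, each in valproic acid and in saline rats of day 1), 21 held 1 rat far from the others of its group, and chance gives about 1 in 20. In valproic acid rats, 7F156 had signals of 292 for Acsm5 (next 29.4), 767 for Pdk4 (next 449), 338 for Fry (next 243), 779 for Acly (next 697) and 56.8 for Mrc1 (next 38.6), each the highest, and 91.35 for Hspa4 (next 150.7), the lowest. Rat 7F155, which had the highest GAPDH ratio, was lowest for Ccna2 at 18.5 (next 32.8), for Kif20a at 30.6 (next 48.3) and for Echs1 at 1003 (next 1302), and highest for Hdac7 at 147.1 (next 82.5). Rat 7M56 was lowest for Hspa1a at 357 (next 515) and for Fxyd4 at 469 (next 777), 7F157 was lowest for Cpt1a at 1570 (next 1987), and 7M57 was highest for Cry1 at 105.7 (next 78.3).

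In saline rats, 1M1 had 2595 for Hmox1 (next 58.6) and 2238 for Decr2 (next 1196), the highest of 7. Rat 1F104 had 226 for Havcr1 (next 40.6), and its treatment text is absent from the labels. Rat 1F102 had 156.8 for Bmal1 (next 132.1), and its group stayed above every valproic acid rat without it. Rat 1F103 was lowest for Top2a at 25.5 (next 43.7) and for Birc5 at 23.6 (next 45.5), and highest for Stip1 at 718 (next 552). The lowest valproic acid rat for Top2a, at 69.8, lay above every saline rat.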

How the results depend on the processing

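The direction of the 9 called genes held in each of 25 settings (12 that leave out no single rat and 13 that leave out 1), while 22 of the 98 other genes named changed sign in at least 1 setting and 30 of them were called in at least 1. Valproic acid against saline at day 1 gave 26 calls with all 89 arrays, 19 with array weights and 54 with saline and naive rats pooled, against 9, and 7 to 11 calls under the other 10 settings, of which the fit without scaling shared only 3 calls. Without scaling the median of all genes was -0.17, so list medians are given relative to the median of all genes. The 3′ to 5′ GAPDH ratio as a covariate left 6 of the 9 calls (without Npas2, Ptger3 and Cdca3), and leaving out saline rats 1F104 and 1M2 left 7 (without Rnf125 and Cdca3). Leaving out 1 rat gave 6 (without 7M56) to 13 calls (without 7M57). The fit on 89 arrays gave 17 calls at day 5, against 0, 80 against naive rats, against 37, and 12 against the 5 other compounds, against 21 (12 higher and 0 lower, 11 of them among the 21). Leaving out 1 rat gave 0 to 7 calls at day 5 (7 without saline rat 1F105, 2 without 1F106) and 0 to 1 for males minus females (1 without 7M57). The effect of day 5 minus that of day 1 gave 0 calls in each setting. The median of the cell cycle list relative to all genes, 0.296, was 0.146 with a pseudocount of 64. That of red cell genes, -0.37, was -0.171 with a pseudocount of 64 and -0.18 with the filter on the 13 arrays. That of the histone deacetylases, 0.044, was -0.0298 with the GAPDH ratio, 0.00435 without 1F104 and 1M2, and -0.0226 to 0.0994 without 1 rat. That of injury markers, 0.0106, was 0.0921 with naive rats pooled. List medians kept their sign in each of 24 settings for 12 of the 14 lists, not for deacetylases and injury markers. Leaving out 1 rat, beyond the values given with the lists, took the median of macrophage and granulocyte genes (-0.0723) to -0.132 without 7M57 and -0.0406 without 7F156, of ER stress genes (-0.0564) to -0.0886 without 7F156 and -0.0196 without 7F155, of beta-oxidation enzymes (-0.0745) to -0.127 without 1M3 and -0.0322 without 7F155, of red cell genes to -0.22 without 7M57, of heat shock genes (-0.109) to -0.166 without 7M57 and of injury markers to -0.00807 without 7M55 and 0.0381 without 7M57. The cause of these shifts was not tested. No paired analysis was possible because a rat has a single array and nothing in the labels pairs rats across groups.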
